A study of Macaca fascicularis
Homo sapiens with 2 samples.

Results

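Glycogen is the branched glucose polymer in which cells store sugar, and 9 genes that build it or take it apart were followed here in UGP2 knockout stem cells of 2 primates at the start and after 7 days of neural induction. The 9 symbols were given by name. Of them, 3 belong to synthesis (GYS1, GYG1 and GBE1) and 6 to breakdown (PYGB, PYGL, GAA, EPM2A, STBD1 and PHKA1). All 9 were found among 20669 human genes and 7 among 22504 cynomolgus genes. GYS1 and EPM2A have no cynomolgus entry under these symbols, so their level in cynomolgus cells could not be read from a cynomolgus copy.

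The cells were H9, a human embryonic stem cell line, and 56A1, an induced pluripotent stem cell line of the cynomolgus macaque. Each species is 1 line, both lines carry the UGP2 knockout, and no wild-type cells were among the samples used here, which means that the knockout itself is compared with nothing. UGP2 makes UDP-glucose, the sugar donor of glycogen synthesis. On day 0 the cells were in UPPS, the medium of the pluripotent cultures, and for induction they were moved to a neural progenitor medium with 10 µM SB431542 and 100 nM LDN193189, inhibitors of activin/NODAL and BMP receptors. Both species were pooled in equal amounts, giving 1 droplet-based 3′ library on each day. Species was assigned cell by cell from the genome that the molecules mapped to.

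A new glycogen molecule starts on glycogenin (GYG1), a protein that adds the first glucose units to itself. Glycogen synthase (GYS1) lengthens the chains from UDP-glucose, and the branching enzyme (GBE1) moves short stretches of chain to make branches. Glycogen phosphorylases (PYGB, the brain form, and PYGL, the liver form) release glucose phosphate from chain ends in the cytosol, while acid alpha-glucosidase (GAA) digests glycogen in lysosomes.

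A single library per day leaves no replicates, and nothing was tested. Intervals are exact 95% Poisson or binomial intervals that cover counting error only, and every difference describes these libraries. Levels are unique molecular identifiers (UMIs) in counts per 1000000 own-species, non-mitochondrial UMIs (CPM), pooled over all cells that a species has on a day. A 3′ library counts 1 end per transcript, so CPM is not divided by gene length. The day 0 library held 12093 barcodes and 71377836 UMIs, and the day 7 library held 16403 and 99430745. These gave 5206 human and 2016 cynomolgus cells on day 0 and 8173 and 6467 on day 7. On days 0 and 7 the summed depth of human cells was 34670316 and 43723892 UMIs, and 3 UMIs, the floor set for a count of 0, correspond to 0.0865 and 0.0686 CPM. For cynomolgus cells it was 10683788 and 34639499 UMIs, with floors of 0.281 and 0.0866 CPM. Cells called cynomolgus before induction held human-genome UMIs at a median of 9.003%, close under the 10% limit of the call. At day 0, 38.2% of barcodes were called neither species, against 9.16% at day 7. The libraries share 50 barcodes, 30 of them called a species in both. The labelled cell types were checked against marker lists. Of the pluripotency markers at 5 CPM or more, 9 of 11 in human and 5 of 7 in cynomolgus cells were at least 2-fold lower on day 7, and all 10 and all 8 neural progenitor markers were at least 2-fold higher. The 5-gene lists for mesoderm and for neural crest each summed to 24.8 CPM or less in every group, and the endoderm and amnion lists to 21.4 CPM or less. The UGP2 transcript was still read: human cells had 216.6 CPM before and 87.0 CPM after induction, cynomolgus cells 326.9 and 76.8 CPM. A 3′ count does not show whether the gene is intact.

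The synthesis genes differed between the days in opposite directions, and both species had the same pattern. GBE1 was the only member at least 2-fold higher on day 7, in both species, and GYG1 was lower in both. The background takes genes that reached 5 CPM on a day, which leaves out STBD1 in human cells and STBD1 and GAA in cynomolgus cells. Counted against it, 1 of 8 human members was at least 2-fold higher, where 14.9% of 12010 genes were, and 1 of 8 was at least 2-fold lower, where 14.4% were. In cynomolgus cells 1 of 5 members was at least 2-fold higher, against 13.8% of 11276 genes, and 0 of 5 lower, against 11%. These are counts of 1 or 0 genes and show no excess over the background. The median log2 change was 0.29 over the 9 human members and 0.03 over the 7 cynomolgus members, beside 0.05 and 0.06 over all genes tested. Changes are log2 of (CPM + 1) on day 7 over day 0, a scale that understates the change of low genes. The plot of levels by species and day shows GBE1 above and GYG1 below its day 0 level in each species, with the breakdown genes closer together.

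**Figure D1:**
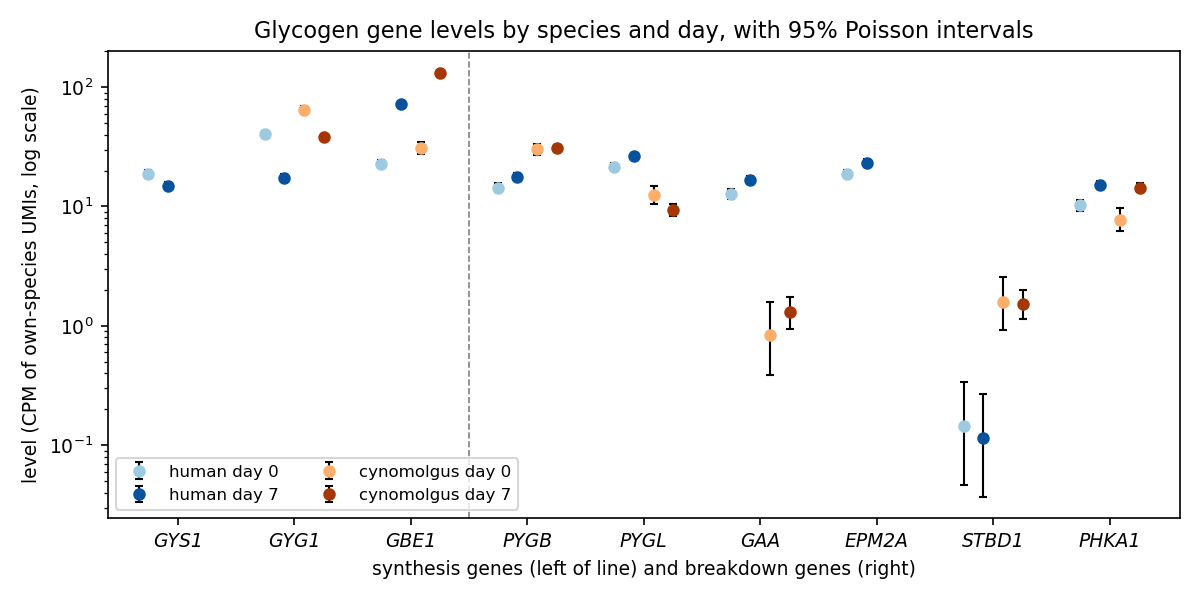
Level of each gene (CPM, log axis) on day 0 and day 7 in human and cynomolgus cells, with exact 95% Poisson intervals that cover counting error only; each point is 1 library's cells of 1 species. Human GBE1 was at 22.7 and 72.5 CPM and cynomolgus GBE1 at 31.0 and 130.1 CPM, GYG1 was lower on day 7 in both species, and most breakdown genes lay between 7 and 31 CPM.

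GBE1 (ENSG00000114480 and ENSMFAG00000042659) was read with 788 UMIs in human cells on day 0, 22.7 CPM (21.2 to 24.4), and 3169 UMIs on day 7, 72.5 CPM (69.98 to 75.0). In cynomolgus cells it was read with 331 UMIs on day 0, 31.0 CPM (27.7 to 34.5), and 4505 UMIs on day 7, 130.1 CPM (126.3 to 133.9). The 4 levels followed the order human day 0, cynomolgus day 0, human day 7 and cynomolgus day 7, with no overlap between the intervals. The later level was 3.19 times the earlier one (2.95 to 3.45) in human cells and 4.20 times (3.75 to 4.71) in cynomolgus cells. On the log2 scale these changes were 1.63 and 2.03. With species called at 80% in place of 90% of UMIs, the cynomolgus change was 2.10. Of all genes tested, 700 of 12010 in human and 425 of 11276 in cynomolgus cells had an increase at least as large.

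GYG1 (ENSG00000163754 and ENSMFAG00000039971) ran the other way. Human cells had 1412 UMIs on day 0, 40.7 CPM (38.6 to 42.9), and 763 on day 7, 17.5 CPM (16.2 to 18.7), a day 0 level 2.33 times the later one (2.14 to 2.55). Cynomolgus cells had 684 UMIs on day 0, 64.0 CPM (59.3 to 69.0), and 1335 on day 7, 38.5 CPM (36.5 to 40.7), a ratio of 1.66 (1.51 to 1.82). The cynomolgus level was the higher one on each day. The order was cynomolgus day 0, human day 0, cynomolgus day 7 and human day 7, and the intervals of human day 0 and cynomolgus day 7 overlap.

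GYS1 (ENSG00000104812) could be read in full only in human cells. It had 649 UMIs, 18.7 CPM (17.3 to 20.2), on day 0 and 654 UMIs, 14.96 CPM (13.8 to 16.1), on day 7, a log2 change of -0.31 (-0.45 to -0.16). This lay under the 2-fold mark, in a smaller downward step than that of GYG1.

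The human GYS1 copy was also counted in cells called cynomolgus, far above the level at which other members crossed between genomes. It had 105 UMIs there on day 0, 9.83 CPM (8.04 to 11.9), which is 52.5% of its level in human cells, and 369 UMIs on day 7, 10.7 CPM (9.59 to 11.8), which is 71.2%. For comparison, the median of this percentage was 5.17% over the 9591 human genes at 10 CPM or more on day 0 and 2.32% over 9619 such genes on day 7, and human mitochondrial genes stood at 5.01% and 0.746%. GAA showed the same: its human copy had 67 UMIs on day 0 and 283 on day 7 in cynomolgus cells, 49.1% of its human-cell level on each day, beside 9 and 45 UMIs of the cynomolgus copy. The other human copies, apart from STBD1 with 0 UMIs, stood at 0.992% to 7.12% on day 0 and 1.16% to 4.94% on day 7. Whether cynomolgus transcripts of these 2 genes were mapped to the human genome was not tested. The human GYS1 value in human cells is therefore given with no cynomolgus level beside it, and the cynomolgus GAA level as that of the listed copy only.

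None of the breakdown genes reached a 2-fold difference between the days in either species. The phosphorylases differed between species more than between days. PYGB (ENSG00000100994 and ENSMFAG00000033575) had 14.4 CPM (13.2 to 15.7, from 499 UMIs) in human cells before induction and 17.7 CPM (16.5 to 19.0, from 776 UMIs) after it. In cynomolgus cells it was at 30.1 CPM (26.9 to 33.6, from 322 UMIs) and 30.8 CPM (29.0 to 32.7, from 1068 UMIs). The cynomolgus intervals overlap each other and lie above both human ones.

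PYGL (ENSG00000100504 and ENSMFAG00000006403) had the reverse order of species. Its level was 21.6 CPM (20.1 to 23.2; 749 UMIs) on day 0 and 26.7 CPM (25.2 to 28.2; 1166 UMIs) on day 7 in human cells, and 12.5 CPM (10.5 to 14.9; 134 UMIs) and 9.38 CPM (8.39 to 10.5; 325 UMIs) in cynomolgus cells. The log2 change was 0.29 (0.16 to 0.42) in human and -0.38 (-0.65 to -0.12) in cynomolgus cells.

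PHKA1 (ENSG00000067177 and ENSMFAG00000038543), a regulatory subunit of phosphorylase kinase, which switches phosphorylase on, was higher on day 7 in both species. Human cells had 10.2 CPM (9.17 to 11.3; 354 UMIs) and 15.2 CPM (14.1 to 16.4; 664 UMIs), and cynomolgus cells 7.77 CPM (6.19 to 9.63; 83 UMIs) and 14.3 CPM (13.1 to 15.7; 497 UMIs). The fold was 1.49 (1.31 to 1.70) in human and 1.85 (1.46 to 2.36) in cynomolgus cells, and the cynomolgus level was 0.761 times the human one (0.592 to 0.969) on day 0 and 0.945 times (0.839 to 1.06) on day 7.

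EPM2A (ENSG00000112425), which encodes laforin, a phosphatase that acts on glycogen, had human levels of 18.9 CPM (17.4 to 20.4, from 654 UMIs) and then 23.3 CPM (21.9 to 24.8, from 1020 UMIs). GAA (ENSG00000171298 and ENSMFAG00000043192) was at 12.8 CPM (11.6 to 14.0; 443 UMIs) and 16.6 CPM (15.4 to 17.9; 727 UMIs) in human cells. These 2 changes, 0.29 and 0.36 on the log2 scale, were near those of the 2 phosphorylases in human cells.

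STBD1 (ENSG00000118804 and ENSMFAG00000053353), a protein that binds glycogen and tethers it to membranes, was close to the floor. Human cells had 5 UMIs on each day and cynomolgus cells 17 and 53, 1.59 CPM (0.927 to 2.55) and 1.53 CPM (1.15 to 2.00). In human cells its share of cells with a UMI did not stand above the background from the other species' cells, so no human level or species difference is read from it.

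Between species, levels also depend on the annotations' transcript ends, which were not compared here. The cynomolgus level of PYGB was 2.09 times the human one (1.81 to 2.41) on day 0 and 1.74 times (1.58 to 1.91) on day 7. For GYG1 the ratios were 1.57 (1.43 to 1.72) and 2.21 (2.02 to 2.42), and for GBE1 1.36 (1.20 to 1.55) and 1.79 (1.71 to 1.88). PYGL was 1.72 times (1.43 to 2.09) and 2.84 times (2.51 to 3.22) as high in human cells. For GAA the human level was 15.2 times (7.92 to 33.4) and 12.8 times (9.47 to 17.7) that of the listed cynomolgus copy, with the human copy's UMIs in cynomolgus cells left aside. On day 0 that copy had 9 UMIs. Its share of cells was then not above the background after thinning to 2500 or to 4000 UMIs, though it was at 1500. Both copies together gave 7.11 and 9.47 CPM of GAA in cynomolgus cells. The counts of GAA as 2-fold lower take the listed copy only and depend on that choice. The background keeps genes at 5 CPM or more in either species, which leaves out STBD1 and keeps 6 members. On day 0, 1 of 6 was at least 2-fold higher in cynomolgus cells (PYGB), where 16% of 10103 genes were, and 1 was at least 2-fold lower (GAA), where 14.7% were. On day 7 it was 1 of 6 higher (GYG1), where 16.9% of 10157 genes were, and 2 lower (PYGL and GAA), where 14.5% were.

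The size of the change also differed between species for part of the group, none of it by 2-fold or more. Over all 9094 genes compared, 7.92% had a change at least 2-fold greater in cynomolgus cells and 7.19% at least 2-fold smaller. The cynomolgus minus human difference in log2 change was 0.40 (0.21 to 0.59) for GBE1 and 0.46 (0.28 to 0.64) for GYG1, whose decrease was smaller in cynomolgus cells. It was -0.67 (-0.97 to -0.38) for PYGL and -0.25 (-0.48 to -0.02) for PYGB. For PHKA1 it was 0.28 (-0.07 to 0.62), an interval that includes 0. The 7.92% and 7.19% shares count differences of 2-fold or more, which none of these 5 values reached. The share of all genes with differences as small as these is not given.

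**Figure D2:**
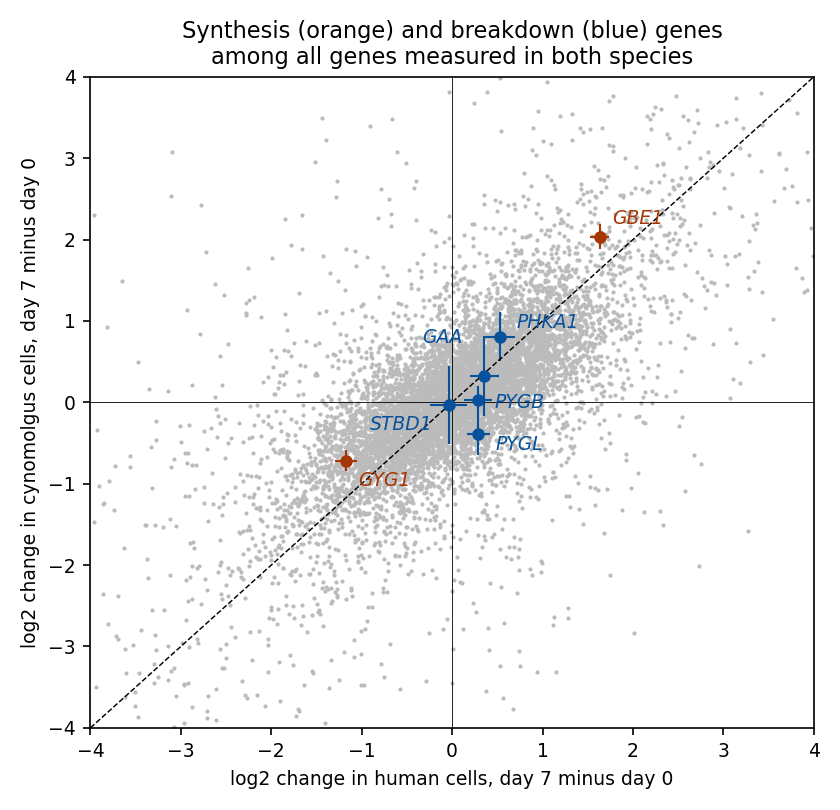
Change from day 0 to day 7 in human cells (x axis) and cynomolgus cells (y axis), both log2 of (CPM + 1) ratios, for the 9094 genes given once in both annotations, with the members labelled; 118 genes lie outside the drawn range of -4 to 4. GBE1 lies at 1.63 and 2.03 and GYG1 at -1.18 and -0.72, inside the broad cloud of all genes, and the breakdown genes lie between -0.04 and 0.53 in human and between -0.38 and 0.81 in cynomolgus cells, with PHKA1 the highest in both.

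Summed over all 9 members, synthesis and breakdown UMIs were near equal in human cells. Over the 7 members read in cynomolgus cells, synthesis UMIs were the more numerous. The sums hide the opposite courses of GBE1 and GYG1. Human cells had 2849 synthesis and 2704 breakdown UMIs on day 0, and 4586 and 4358 on day 7, a ratio of 1.05 on each day. Cynomolgus cells had 1015 and 565 on day 0 and 5840 and 1988 on day 7, a ratio of 1.80 and then 2.94, and the log2 change of the ratio was 0.71 (0.54 to 0.88). In human cells it was -0.0018 (-0.098 to 0.095). The cynomolgus sum lacks GYS1 and EPM2A, so the ratios of the species are not over the same genes, and both depend on which synthesis gene is counted. It also leaves out the UMIs of the human GAA copy in cynomolgus cells. Human ratios over only the genes read in both species are not given, so no difference in balance between species is read.

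Within synthesis, the makeup turned over. GBE1 made up 27.7% (26.0 to 29.3) of human synthesis UMIs on day 0 and 69.1% (67.7 to 70.4) on day 7. GYG1 went from 49.6% to 16.6% and GYS1 from 22.8% to 14.3%. In cynomolgus cells GBE1 went from 32.6% (29.7 to 35.6) to 77.1% (76.0 to 78.2) of the 2 genes read there. Within breakdown, each human gene kept its share within 3 percentage points. In cynomolgus cells PHKA1 went from 14.7% to 25% of breakdown UMIs and PYGL from 23.7% to 16.3%.

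**Figure D3:**
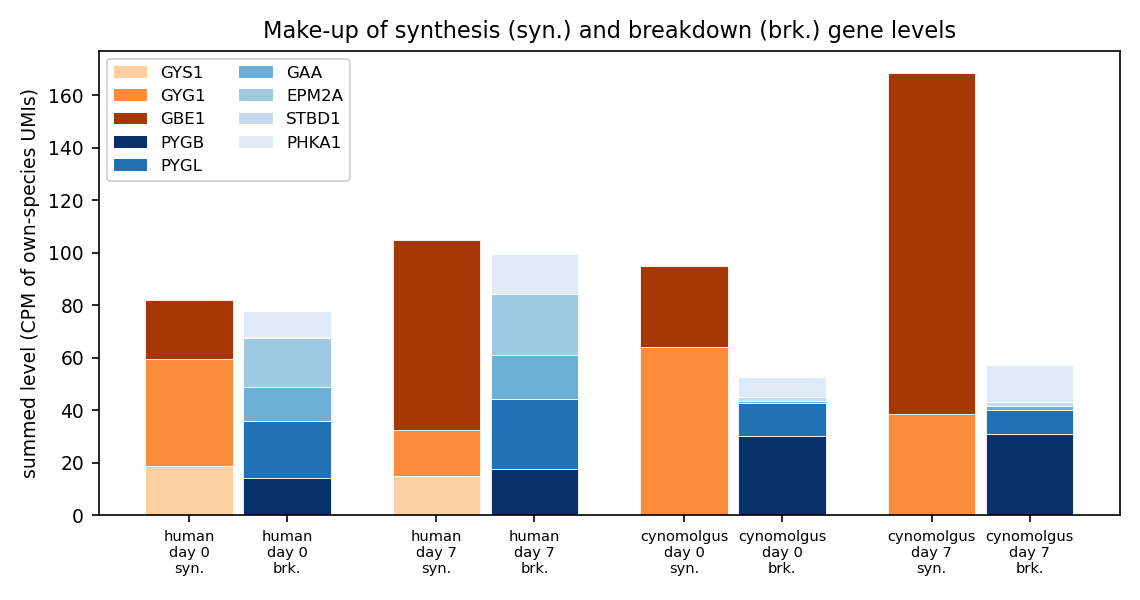
Stacked bars of the summed level (CPM, y axis) of synthesis (syn.) and breakdown (brk.) genes, coloured by gene, for each species and day. GBE1 takes 27.7% and 69.1% of the human and 32.6% and 77.1% of the cynomolgus synthesis UMIs, while the makeup of human breakdown UMIs is almost the same on both days.

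The share of cells with a UMI was read as well. Cells were thinned to 2500 own-species UMIs so that depth would be equal, at the cost of 516 human cells on day 0 and 410 on day 7, and 19 and 510 cynomolgus cells. A GBE1 UMI was seen in 5.71% (5.07 to 6.42) of human cells on day 0 and 14.98% (14.2 to 15.8) on day 7, and in 6.91% (5.84 to 8.11) and 23.8% (22.7 to 24.9) of cynomolgus cells. Before thinning the shares were 12.9% and 27.5% in human and 14.3% and 38.6% in cynomolgus cells. The other species' cells, which should lack each copy, were thinned to 2500 UMIs over both genomes, mitochondrial UMIs included. They held a GBE1 UMI in at most 0.376% of cells. Before thinning, these background cells had median depths of 5134 to 7507 UMIs over both genomes. GYG1 was seen in 8.76% and 4.55% of human and 15.4% and 9.12% of cynomolgus cells. The human GYS1 share was 4.86% and 3.76%, against 1.70% and 2.80% in cynomolgus cells, and GAA was 3.22% and 4.07% against 1.25% and 2.01%. Thinned to 1500 UMIs, the day 7 share of GYS1 in human cells, 2.07% with a lower bound of 1.77%, was not above the range of 1.22% to 1.83% in cynomolgus cells.

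GBE1 was not spread evenly over the cynomolgus cells of day 7. Clusters were formed without the 9 genes and the other glycogen genes, and a cluster was taken as hypoxia-high when it had 100 cells or more and at least 1.5 times the summed level of a hypoxia list of its species and day. The rule was chosen with the data in view, the hypoxia genes themselves took part in the clustering, and the clusters are described and not tested. It picked clusters 2 and 4 of cynomolgus day 7 (1839 cells, 28.4%) and cluster 5 of human day 0 (441 cells, 8.47%), and none among human day 7 or cynomolgus day 0 cells. In cynomolgus day 7 cells GBE1 was at 279.8 CPM (269.0 to 291.0) in those clusters and 78.0 CPM (74.6 to 81.5) in the other 4628 cells, a ratio of 3.59 (3.38 to 3.81). By cluster, it was 80.5, 75.0, 272.6, 67.0 and 301.5 CPM in clusters 0 to 4. Cluster 5 (69 cells) was not hypoxia-high by the rule and had 212.7 CPM of GBE1. Its hypoxia list sum was 2988.4 CPM, beside 2750.4 CPM over all cynomolgus day 7 cells. Cluster 6 (15 cells, 35056 UMIs in all) had 28.5 CPM, a level that rests on very few UMIs. The 10 leading genes of cluster 4 hold ADM, ANKRD37, BHLHE40 and PFKFB4 and also the cell-division genes NEK2, GAS2L3, PIF1, UBE2C and BORA. A list of 6 cell-division genes (Dividing), of which 5 were in the files, summed to 4920.2 CPM in cluster 4, 830.2 CPM in cluster 2 and 4230.1 CPM in cluster 1. The part of these genes in the GBE1 level was not tested, and GBE1 was at 75.0 CPM in cluster 1.

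Among cynomolgus copies at 5 CPM or more, no other member had a 2-fold higher level in those clusters, where 2.02% of 10872 genes did, and 0.248% were 2-fold lower. GYG1 was at 37.6 CPM (33.7 to 41.8) there and 38.9 CPM (36.5 to 41.4) in the other cells. PYGB was at 25.5 against 32.7 CPM, PYGL at 10.96 against 8.83 CPM, and PHKA1 at 10.7 against 15.6 CPM. STBD1 had 26 UMIs inside and 27 outside, 2.91 and 1.05 CPM. The clusters' median own-species depth was 4313 UMIs against 4894.5 and their mitochondrial share 1.60% against 2.42%, and the part of these differences in the GBE1 ratio was not tested. The human copy of GYS1 in these cynomolgus cells was at 18.8 CPM (16.1 to 21.9) in the hypoxia-high clusters and 7.82 CPM (6.78 to 8.98) elsewhere.

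**Figure D4:**
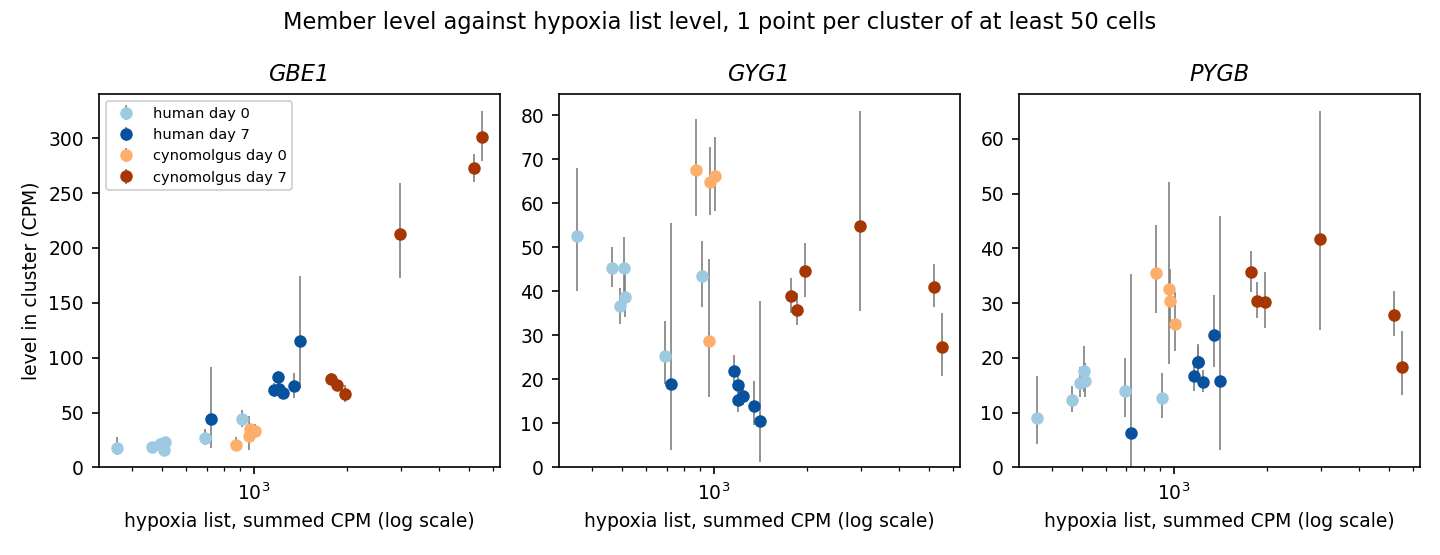
GBE1, GYG1 and PYGB level (CPM, y axes from 0) against the summed level of the hypoxia list (CPM, log x axis), 1 point per cluster of at least 50 cells, coloured by species and day, with exact 95% Poisson intervals. Cynomolgus day 7 clusters 2 and 4 have the highest hypoxia sums, 5180.3 and 5499 CPM, with GBE1 at 272.6 and 301.5 CPM. The sums were 1786 to 1978 CPM in clusters 0, 1 and 3. Cluster 5 (69 cells) had GBE1 at 212.7 CPM with a hypoxia sum of 2988.4 CPM.

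In human day 0 cells GBE1 was at 44.3 CPM (37.3 to 52.3) in hypoxia-high cluster 5 and 20.6 CPM (19.0 to 22.2) in the rest, a ratio of 2.16 (1.78 to 2.59). At a finer clustering, Leiden resolution 1.0, the rule picked 136 cells with GBE1 at 96.5 CPM (76.4 to 120.2). GBE1 was 1 of 8 members at 5 CPM or more that was at least 2-fold higher in cluster 5, against 1.72% of 11547 genes, and 0 of 8 were lower, against 0.701%. The name hypoxia-high comes from the summed list alone: the cluster's 10 leading genes, NPTX1, LRRTM3, PTCHD4, IRX2, PCDH18, COBL, P3H2, ESYT2, DDIT4 and STC1, include none of the list. Of 15 list genes at 5 CPM or more, 5 were at least 2-fold higher there, such as BNIP3 at 255.6 against 86.5 CPM and PFKFB4 at 48.2 against 16.4 CPM. ADM was at 54.8 CPM on both sides, VEGFA at 5.07 against 7.52 CPM and PFKFB3 at 27.9 against 26.0 CPM. GYG1 was at 43.4 and 40.5 CPM and GYS1 at 21.2 and 18.5 CPM, with overlapping intervals. Human day 7 clusters had 67.5 to 82.1 CPM of GBE1 in clusters 0 to 4, and 115.4 and 44.3 CPM in the small clusters 5 and 6 of 122 and 85 cells.

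Cell by cell, GBE1 was highest in cells with many UMIs of the hypoxia list in human cells of both days and cynomolgus cells of day 7, again in bins chosen with the data in view. In thinned cynomolgus day 7 cells it was at 68.9 CPM in cells with 0 or 1 list UMIs, 63.6 CPM with 2 to 4, 100.3 CPM with 5 to 9 and 263.6 CPM with 10 or more (1628 cells). Human day 7 cells gave 59.8, 65.3, 94.9 and 175 CPM, the last over 32 cells. On day 0 the human values were 22.6, 18.8, 105.8 (155 cells) and 121.7 CPM (23 cells). Cynomolgus day 0 cells gave 28.1, 29.9 and 25.5 CPM in the first 3 bins and had 7 cells in the last. At 0 to 1 list UMIs human cells had 22.6 CPM of GBE1 before and 59.8 CPM after induction, and cynomolgus cells 28.1 and 68.9 CPM. This bin held 64.9% of human cells on day 0 and 25.8% on day 7, and 35.7% and 7.12% of cynomolgus cells. A low count in a thinned cell can arise by sampling alone, so the bin does not match cells by list level between the days. Whether the GBE1 difference between the days is separate from that of the hypoxia list was not tested. The species share of cells in the top bin differed, 27.3% in cynomolgus and 0.412% in human cells on day 7. The bins used the 17 list genes read in both species. The summed list was at 960.3 CPM in cynomolgus (17 genes) and 538.0 CPM in human cells (18 genes) on day 0, and at 2750.4 and 1214.2 CPM on day 7. The same UMI cut thus takes unlike parts of the 2 species' cells, and the part of the annotations in this was not tested. Over the cynomolgus day 7 bins GYG1 was at 34.0, 37.7, 39.5 and 38.3 CPM. In human cells the point values of GYG1 were 38.3, 35.2, 31.0 and 17.4 CPM on day 0 and 21.9, 18.4, 15.7 and 12.5 CPM on day 7, the last of each from 1 UMI. The intervals of these bins overlap on each day, so no downward course is read from them.

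**Figure D5:**
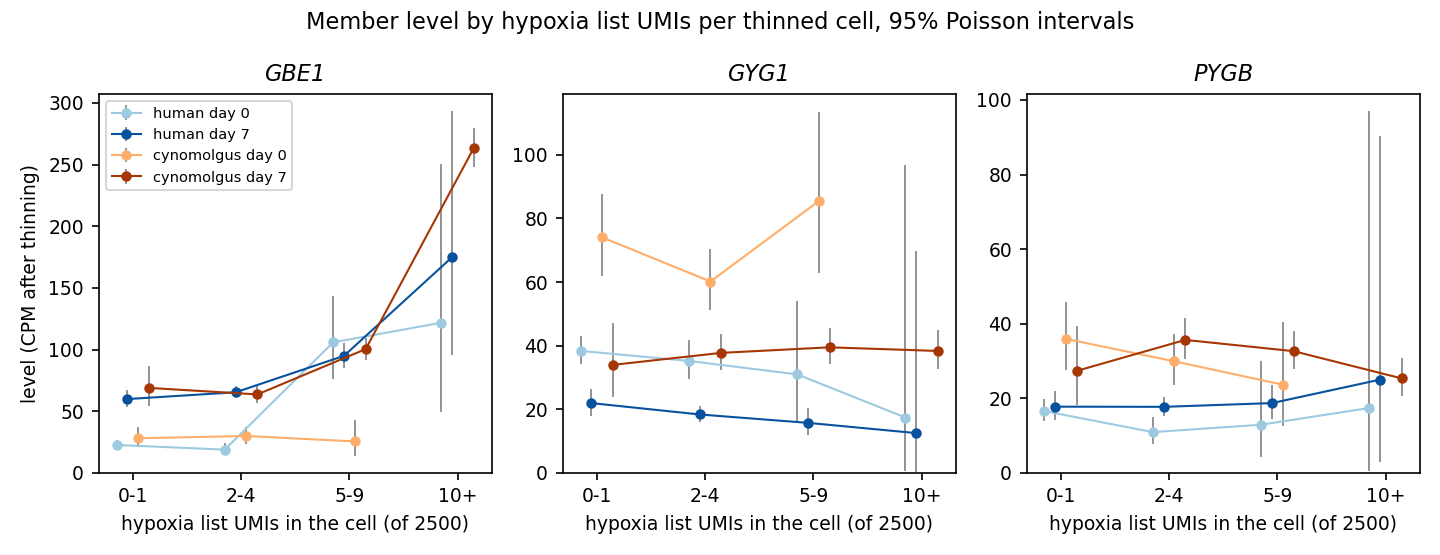
Level of GBE1, GYG1 and PYGB (CPM, y axes) in cells grouped by UMIs of the hypoxia list after thinning to 2500 UMIs, as lines for each species and day, with exact 95% Poisson intervals; the bin of 7 cynomolgus day 0 cells is not drawn. GBE1 is at 263.6 CPM in cynomolgus day 7 cells with 10 or more list UMIs against 63.6 to 100.3 CPM below that, while GYG1 stays between 34.0 and 39.5 CPM there.

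Leaving out the hypoxia-high clusters of cynomolgus day 7 changed the sign of the GBE1 difference in change between species. The cynomolgus GBE1 level was then 31.0 CPM on day 0 and 78.0 CPM on day 7, a fold of 2.52 (2.24 to 2.84). The cynomolgus minus human difference in log2 change was -0.33, given without an interval, in place of 0.40. Only cynomolgus day 7 cells were removed, and these were high in GBE1 (279.8 CPM). All human cells were kept, among them the hypoxia-high day 0 cluster with GBE1 at 44.3 CPM, against 20.6 CPM in the rest. A difference with that human cluster also left out is not given. Without the cynomolgus clusters, the cynomolgus synthesis to breakdown ratio was 1.96 on day 7 in place of 2.94, against 1.80 on day 0.

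At day 0, 1 cluster of each species carried neural progenitor genes. Human cluster 6 (429 cells) had GYG1 at 25.4 CPM (19.0 to 33.2) against 36.6 to 52.6 CPM in the other human day 0 clusters. Cynomolgus cluster 3 (96 cells, 522784 UMIs in all) had it at 28.7 CPM, from few UMIs, against 64.7 to 67.5 CPM in the others. Leaving these cells out gave a log2 change of GYG1 of -1.21 in human and -0.76 in cynomolgus cells, near the values with them. Human cluster 4 of day 0 (547 cells, 1102005 UMIs in all) had a median of 1880 UMIs against 6408.5 over all human day 0 cells. It had GYS1 at 5.44 CPM, EPM2A at 3.63 CPM and PHKA1 at 2.72 CPM (0.561 to 7.96). Each of these 3 rests on few UMIs and was below the point values of the other human day 0 clusters. GYG1 was at 52.6 CPM there.

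The other 36 glycogen genes were read from a list of isozymes, regulators and sugar phosphate enzymes. Human cells had all 36, of which 30 were at 5 CPM or more, 5 of them 2-fold or more above and 5 as far below their day 0 level, beside 14.9% and 14.4% of all human genes tested. The higher ones were PHKB, a further phosphorylase kinase subunit (54.6 to 147.2 CPM), PPP1R3C and PPP1R3E, which bring protein phosphatase 1 to glycogen (1.12 to 7.59 and 3.37 to 15.5 CPM), GSK3B, a kinase of glycogen synthase (143.4 to 293.1 CPM), and PRKAA2, a catalytic subunit of AMP-activated kinase (36.1 to 124.9 CPM). The lower ones were the phosphatase subunits PPP1CA (328.6 to 143.8 CPM) and PPP1CC (268.6 to 122.95 CPM), hexokinase HK1 (61.6 to 28.2 CPM), PGM2 (35.7 to 17.1 CPM) and UGP2. In cynomolgus cells 28 were in the files and 22 at 5 CPM or more, with PHKB (45.1 to 94.5 CPM) and PPP1R3C (1.78 to 10.1 CPM) higher and HK1 (78.7 to 32.3 CPM) and UGP2 lower, beside 13.8% and 11% of all cynomolgus genes. These counts are near the background shares. The median log2 change was -0.08 in human and 0.36 in cynomolgus cells.

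The isozymes of the members behaved unlike each other. GYS2, the liver glycogen synthase, had 0 UMIs in human cells on both days, and 0 and 6 in cynomolgus cells. GYG2, a further glycogenin, had 65.2 and 70.5 CPM in human cells, and cynomolgus cells 76.2 and 46.9 CPM at the start and end, above GYG1 in both species and on both days. PYGM, the muscle phosphorylase, had 1.70 and 1.10 human and 0.936 and 0.895 cynomolgus CPM.

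In the hypoxia list, 7 of 15 human genes at 5 CPM or more were at least 2-fold higher on day 7 and 1, ADM, was lower. Of all human genes tested, 14.9% were higher and 14.4% lower. In cynomolgus cells 13 of 16 were higher and 0 lower, beside 13.8% and 11% of all cynomolgus genes tested. The largest human changes on the log2 scale were ADM at -3.10, P4HA1 at 2.63, ANKRD37 at 2.15, MXI1 at 1.90 and BNIP3L at 1.68. In cynomolgus cells they were ANKRD37 at 3.18, ADM at 3.08, P4HA1 at 2.76, PFKFB4 at 2.62 and NDRG1 at 2.42.

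GBE1 and GYG1 were also compared with 6336 genes by the distance between log2 profiles over the 4 groups of species and day, where each profile is centred on its own mean and a smaller distance means a more similar pattern. Nearest to GBE1 were PTCH1 (0.0904), CEMIP2 (0.162) and BNIP3L (0.247). Nearest to GYG1 were TCEAL8 (0.0796), TIMM8A (0.0921) and UCK2 (0.108). With 4 points per profile many genes can be close, and these are descriptions.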

How the data were processed

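The values are deposited UMI counts for each gene and barcode of 10x Chromium 3′ libraries (kit v3.1). The file headers name Cell Ranger 7.1.0, and the submitters' processing notes name version 7.2.0 with GRCh38. Cynomolgus gene names carry Macaca_fascicularis 6.0, Ensembl release 107. For mapping, the settings were not given in the sources used here.

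A barcode was kept with 1000 UMIs or more, at least 500 genes and mitochondrial UMIs of 20% or less. It was human from 90% human-genome UMIs upward and cynomolgus up to 10%. No doublet caller was run. Counts were summed per species and day. The pseudocount was 1 CPM, and backgrounds take genes that reached 5 CPM. Clusters are Leiden clusters of each species and day at resolution 0.5. The members and lists were chosen with earlier results of these data known. Named are all members, other glycogen genes past 2-fold, GYS2, GYG2 and PYGM, the 3 genes nearest in pattern to each member at 20 CPM or more in both species, and up to 5 hypoxia genes per species. An item under this rule is not reported here. Genes outside this rule in the account of the hypoxia-high clusters were chosen after their values were seen. Counts were also simulated from the pooled day 0 profile of each species, with 100 genes raised 2-fold and 100 lowered. The raised and lowered genes had median log2 changes of 0.98 and -0.97 in human and 0.98 and -0.98 in cynomolgus cells. They were drawn from 9591 human and 9047 cynomolgus genes. This checks the calculation only. Software was Python 3.11.15 with scanpy 1.11.5 and leidenalg 0.10.2 for clustering, numpy 2.4.6 and pandas 2.3.3 for sums, scipy 1.17.1 for intervals, scikit-learn 1.9.0, and matplotlib 3.10.9 for figures.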

Additional observations from a re-analysis of the deposited data

How the results depend on the processing

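The limit of these data is 1 library per day: culture, library and day cannot be told apart, and intervals cover counting error only. Of 208 recalculated log2 changes of single genes, 205 stayed within their counting interval and 3 moved. GBE1 in cynomolgus cells was 1.30 without the hypoxia-high day 7 clusters, and with a pseudocount of 5 CPM the human changes were -1.03 for GYG1 and 1.48 for GBE1. The cynomolgus minus human difference for GBE1 was -0.33, a change of sign, without those cynomolgus clusters and with all human cells kept. At a 1.5-fold mark 3 cynomolgus members were counted as changed. The share of all cynomolgus genes past that mark is not given, so no excess is read from this count. The log2 change of the synthesis to breakdown ratio depended on the members: leaving out GBE1 gave -1.23 in human and -0.85, a reversal, in cynomolgus cells, leaving out GYG1 gave 0.72 and 1.95, leaving out GYS1, EPM2A and GAA gave 0.14 in human cells, and leaving out the hypoxia-high clusters gave 0.13 in cynomolgus cells. At Leiden resolution 1.0 the human day 0 hypoxia-high cluster held 136 cells in place of 441, and had log2 ratios to the rest of 2.20 for GBE1, -0.42 for GYG1 and 0.26, in place of -0.34, for PHKA1. Shares of cells with a UMI moved with the thinning depth in 57 of 64 recalculations. Calling cynomolgus cells at 95% left 0 on day 0 and was not run for them. No paired analysis was possible because each day is 1 library.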

Other observations

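Most other glycogen genes were not higher by 2-fold in the hypoxia-high clusters. In cynomolgus day 7 clusters 2 and 4, 2 of the 22 at 5 CPM or more were at least 2-fold higher and 0 lower, with a median log2 difference of 0.04, where 2.02% and 0.248% of all genes were. They were PPP1R3C, which brings protein phosphatase 1 to glycogen, at 24.4 CPM against 5.10 CPM elsewhere, and hexokinase HK2 at 118.4 against 33.7 CPM. UGP2 was at 78.4 against 76.2 CPM there, PHKA2, a phosphorylase kinase subunit, at 12.1 against 17.9 CPM, and GSK3A, a kinase of glycogen synthase, at 33.0 against 45.8 CPM. In human day 0 cluster 5, 0 of 27 were 2-fold higher and 0 lower, with a median log2 difference of 0.12, where 1.72% and 0.701% of all genes were. UGP2 was at 384.9 against 199.8 CPM, PGM1, which interconverts glucose phosphates, at 69.1 against 37.2 CPM, and PHKG2, a catalytic subunit of phosphorylase kinase, at 12.4 against 18.1 CPM. These genes were chosen after their values were seen.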
